A study of Mus musculus with 1187 samples.

Results

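Tfrc, Insr, Igf1r and Lepr encode cell surface receptors through which transferrin-bound iron, insulin, insulin-like growth factor and leptin may reach the brain from blood. They were taken by name as 4 of the 46517 genes in a table of read counts from 1187 single brain endothelial cells, and all 4 had reads. The cells came from adult C57BL/6 mice, described as 3 months old, of the Pdgfb ret line crossed to Cldn5-GFP and Cspg4-DsRed reporters, and were sorted as positive for the first reporter and negative for the second. Pdgfb ret lacks the retention motif that holds PDGF-B, the pericyte-recruiting growth factor of endothelium, at the cell surface. The labels name 590 cells as Pdgfb ret/+ and 597 as Pdgfb ret/ret, which is short of brain pericytes, and name no animal. The columns carry a plate and a well, and the labels carry neither. Plates 521 and 522 together hold as many cells as the labels name Pdgfb ret/+, and plates 523 and 524 as many as Pdgfb ret/ret. A match of counts does not state which cells a plate holds, so no cell was given a genotype. The values below therefore describe cells of the Pdgfb ret/+ and Pdgfb ret/ret groups together, by plate (521, 522, 523 and 524) and by vessel-zone marker. All cells count as 1 pooled sample, so differences are given as values without a test, and plate, genotype and animal cannot be told apart.

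The transferrin receptor binds iron-loaded transferrin at the luminal face of brain endothelium, enters through clathrin-coated pits and recycles after the iron has left the endosome, and it has been used to carry antibodies across the blood-brain barrier. The insulin receptor and the type 1 insulin-like growth factor receptor are related tyrosine kinases, both of which can move their ligands across or signal within endothelium. The leptin receptor is a cytokine receptor with several splice forms, and leptin from fat tissue acts through it in the hypothalamus. Blood vessels of the brain change in gene expression from artery through capillary to vein. A gene count shows the transcript level and not the receptor protein, the splice form or transport.

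The plates held 300, 290, 285 and 312 cells, with 100779 to 584112 reads per cell (median 360947) and a median of 4462 genes with a read. All 8 markers shared by brain endothelium were at 395 CPM or more, where CPM is the number of a gene's reads in 1000000 reads of the cells summed. Markers of other cell types were low. The summed level of the 8 pericyte markers was 67.9 CPM and that of the 6 microglia markers 108 CPM, and in 18 cells 3 or more markers of some other type reached 100 CPM.

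Tfrc lies on chromosome 16 from 32608920 to 32632794 (plus strand), Insr on chromosome 8 from 3122061 to 3279617 (minus strand), Igf1r on chromosome 7 from 67952827 to 68233668 (plus strand) and Lepr on chromosome 4 from 101717404 to 101815352 (plus strand), by GENCODE M21 on GRCm38. Leprot, the neighbouring leptin receptor overlapping transcript gene, ends at 101659364 in that annotation and shares no exon with Lepr there. RefSeq promoter windows on GRCm38.p6 matched 3 of the 4 symbols. They are shown for the symbols that matched, and Insr had no window. All 4 receptors, Insr included, were lower in the arterial-marker than in the capillary-marker range, as given below. Each run holds 230 bases before and 20 bases from the start site nearest to the GENCODE start, and capitals mark matches on either strand to ACGTG (the core bound by hypoxia-inducible factors), GGGCGG (the GC box) or ACAAAG (the core bound by TCF/LEF factors of Wnt signalling).
Tfrc, chr16:32608666-32608915, plus strand: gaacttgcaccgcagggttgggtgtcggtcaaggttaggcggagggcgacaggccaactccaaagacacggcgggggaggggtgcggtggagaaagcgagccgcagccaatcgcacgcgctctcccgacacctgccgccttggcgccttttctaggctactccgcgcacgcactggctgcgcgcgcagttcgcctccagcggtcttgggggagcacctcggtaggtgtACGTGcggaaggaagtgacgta
Igf1r, chr7:67952027-67952276, plus strand: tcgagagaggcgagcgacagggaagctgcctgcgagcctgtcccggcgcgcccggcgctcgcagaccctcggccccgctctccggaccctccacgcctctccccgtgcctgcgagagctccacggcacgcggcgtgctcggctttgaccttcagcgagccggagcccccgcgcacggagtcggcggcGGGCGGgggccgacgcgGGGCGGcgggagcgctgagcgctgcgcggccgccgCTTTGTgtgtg
Lepr, chr4:101717177-101717426, plus strand: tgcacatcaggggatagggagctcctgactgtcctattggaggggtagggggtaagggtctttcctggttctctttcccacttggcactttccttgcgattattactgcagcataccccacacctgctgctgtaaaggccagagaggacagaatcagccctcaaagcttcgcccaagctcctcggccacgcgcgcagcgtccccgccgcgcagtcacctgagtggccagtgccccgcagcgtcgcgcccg
The Tfrc window held 1 ACGTG, close to the start site, which 16.9% of the 32851 windows of this length in the table also held. The Igf1r window held 2 GC boxes (33.5% of windows held 1 or more) and 1 ACAAAG match (16.2% held 1 or more). The Lepr window held none of the 3. A match here describes letters and not a bound site.

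Tfrc was among the most abundant transcripts of these cells and Lepr was read in few of them. Over all cells Tfrc stood at 926 CPM (rank 86 among the 11461 genes at 5 CPM or more), Insr at 643 CPM (rank 153), Igf1r at 224 CPM (rank 792) and Lepr at 32.9 CPM (rank 6605). Divided by the annotated exon length, the levels were 150 CPM per kb for Tfrc, 46.8 for Insr, 13.3 for Igf1r and 4.67 for Lepr. The plate ranges of these length-scaled levels did not overlap between genes: 105 to 203, 43.2 to 50.3, 9.88 to 16.6 and 3.23 to 7.59. The exon length is that of all annotated splice forms joined, which is longer than most single transcripts.

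The cells differed widely among themselves. The mean CPM of a cell was 935 ± 1137 (SD, n = 1187 cells) for Tfrc, 641 ± 577 for Insr, 222 ± 277 for Igf1r and 33.0 ± 144 for Lepr, so that the SD exceeded the mean for all but Insr. Tfrc was split into cells with much and cells with almost none. It had no read in 224 cells, a level above 0 but under 20 CPM in 136, and 20 CPM or more in 827, with 411 cells at 1000 CPM or more. Insr was at 20 CPM or more in 85.8% of cells and Igf1r in 69.1%, beside 69.7% for Tfrc. Lepr reached 20 CPM in 11.4% of cells (135) and had no read in 971, and the tenth of cells highest in Lepr held 97.5% of the sum of its per-cell CPM. The 10 highest cells alone held 29.8%. With every cell thinned to 100000 reads, a read was found in 74.6% of cells for Tfrc (95% Clopper-Pearson interval 72.0% to 77.0%), 88.7% for Insr (86.8% to 90.5%), 75.4% for Igf1r (72.8% to 77.8%) and 14.6% for Lepr (12.6% to 16.7%). Without thinning these were 81.1%, 91.6%, 78.8% and 18.2%. The median marker of neurons, which the sort should leave out, had a read in 2.65% of cells at the same depth. Reads without molecular identifiers are not independent molecules. All such intervals cover the sampling of cells, taken as independent, and leave out differences between plates and animals.

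Tfrc, Igf1r and Lepr stood apart between plates by more than 1.5-fold, and Insr by less. Tfrc stood at 651, 697, 1254 and 1098 CPM on plates 521, 522, 523 and 524, and the highest was 1.93-fold above the lowest. Its median over cells followed the same order, with 336, 350.0, 850 and 774 CPM on these plates, and 24.3%, 25.5%, 44.6% and 43.9% of cells reached 1000 CPM. Igf1r stood at 166, 186, 279 and 263 CPM (1.68-fold). Insr stood at 594, 608, 691 and 678 CPM (1.16-fold). Lepr stood at 26.9, 22.8, 27.2 and 53.5 CPM (2.29-fold), with plate 524 apart. Of the 12428 genes at 5 CPM or more on any plate, 54% were at least 1.5-fold apart between the highest and the lowest plate, so 3 of 4 receptors past this fold is near the background. Among the 3080 genes at 100 CPM or more the share was 30.3%, and Tfrc and Igf1r were 2 of the 3 receptors at that level. The median number of genes with a read was 5118.5, 4638, 4048 and 4344.5 on plates 521 to 524, lowest on the plates where Tfrc and Igf1r were highest, and the pericyte marker sum was higher on those plates (139 and 85.1 CPM, against 21.5 and 25.8 CPM). Their part in the plate differences was not tested. Without the 10 cells highest in Lepr, of which 6 lay on plate 524, Lepr stood at 20.4, 22.8, 20.2 and 30.2 CPM.

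**Figure D1:**
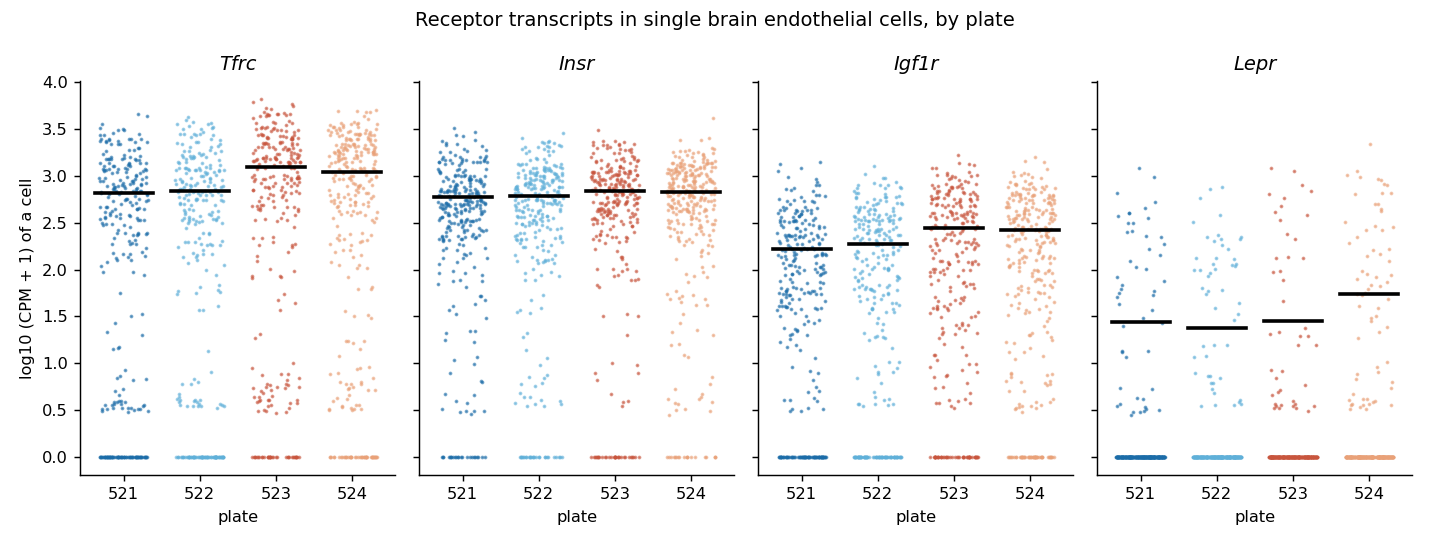
Each point is 1 cell, placed by plate on the horizontal axis and by the log10 of its CPM plus 1 on the vertical axis (a log scale), with a panel for each receptor. The black bar is the CPM of the counts summed over the plate. Tfrc shows a band at 0 and a broad upper band that sits higher on plates 523 and 524 (1254 and 1098 CPM), while Lepr is at 0 in most cells of every plate.

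To place the cells along the vessel, each cell was scored by the mean log2(CPM + 1) of fixed markers: 12 arterial (such as Bmx, Gkn3 and Sema3g), 9 capillary (such as Mfsd2a and Car4), 12 venous (such as Nr2f2 and Vwf) and 12 of sprouting tip-like endothelium (such as Angpt2 and Apln). The upper 20% of each score, ranked within plate, gave 237 cells a range. Such a range is a stretch of a score and not a cell type: 40 to 73 cells lay within 0.1 of the cut of a score. The arterial and venous ranges shared 36 cells, arterial and capillary 26, and venous and capillary 19, and shared cells were left out of the comparisons. Each range was cut from its own score, so a high median of that score in it was fixed in advance. The medians are given as description. The median arterial score was 3.03 in the arterial range against 0.42 in the capillary and 0.31 in the venous range. The median capillary score was 9.10 in its own range against 5.64 in the arterial and 6.04 in the venous range. The median venous score was 3.89 in its own range against 1.57 in the arterial and 1.33 in the capillary range. Median reads per cell were 364927 to 367304 in these ranges, with a median of 4786, 4587 and 5052 genes with a read in the arterial, capillary and venous range. Ratios are log2 ratios of the CPM of summed counts with 1 CPM added on each side, and a gene is counted as higher or lower at 1.5-fold, among genes at 5 CPM or more on either side.

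All 4 receptors were lower in the arterial-marker range than in the capillary-marker range, where 12.6% of 11991 genes were (8.78% of those at 100 CPM or more). Tfrc differed most. It stood at 166 CPM in 211 arterial-range cells and at 1550 CPM in 211 capillary-range cells, a 9.28-fold difference (log2 ratio -3.21). On plates 521, 522, 523 and 524 it was at 147, 167, 249 and 116 CPM in the arterial range and at 1219, 1336, 2101 and 1613 CPM in the capillary range. Every plate had the lower value in the arterial range, and the ranges of plate values lay far apart (log2 ratios -3.04, -2.99, -3.07 and -3.78; SD over plates 0.38). Of all genes measured, 0.09% had a ratio as low or lower. The difference was in the number of cells as well as in the level within them: 32.2% of arterial-range cells and 91.0% of capillary-range cells had Tfrc at 20 CPM or more, and the median among these cells was 412 and 1418 CPM.

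Lepr followed with 5.98 against 52.8 CPM (log2 ratio -2.95). By plate it was at 8.10, 2.42, 12.9 and 1.78 CPM in the arterial range and at 55.6, 58.7, 42.5 and 53.3 CPM in the capillary range, so the plate values did not overlap, but the arterial side rested on 38 to 217 reads a plate. At fixed depth 4.27% of arterial-range cells had a Lepr read (1.97% to 7.94%) against 23.2% of capillary-range cells (17.7% to 29.5%). Igf1r was at 117 against 267 CPM (log2 ratio -1.19), with plate ratios of -1.94, -1.29, -1.24 and -0.75. Its plate values were 64.4, 92.5, 121 and 182 CPM in the arterial and 250, 228, 287 and 307 CPM in the capillary range, without overlap. How many of all genes have plate values without overlap between ranges was not counted, here or for the other receptors.

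Insr, the insulin receptor, was at 502 against 930.0 CPM (log2 ratio -0.89). Its plate values were 338, 376, 729 and 583 CPM in the arterial range and 1019, 946, 1004 and 761 CPM in the capillary range. They did not overlap, but the ratio passed 1.5-fold on plates 521 and 522 only (-1.59 and -1.33, against -0.46 and -0.38 on plates 523 and 524). Insr was read at fixed depth in most cells of either range (84.8% and 97.2%).

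Between the arterial and venous ranges the receptors parted. Tfrc was at 214 CPM in 201 arterial-range cells and at 963 CPM in 201 venous-range cells (log2 ratio -2.17). Its plate values were 157, 160.2, 439 and 124 CPM against 661, 662, 1176 and 1422 CPM, without overlap. How many of all genes have plate values without overlap was not counted for this comparison either. Insr was at 527 and 535 CPM (log2 ratio -0.02), with plate ratios from -0.29 to 0.40, which is less than the 1.5-fold mark in either direction. Igf1r was at 135 and 179 CPM (-0.40), with plate ratios from -1.05 to 0.16, and passed 1.5-fold without plate 524 (-0.60) and with the upper 10% in place of 20% (-1.15). Lepr was at 5.92 and 20.3 CPM (-1.63) with plate ratios of -1.99, -1.31, 2.81 and -4.19. The turn on plate 523 came from 218 reads in the arterial and 16 in the venous range. Without plate 524 the Lepr ratio was -0.97 and without plate 523 it was -2.47. Lower by 1.5-fold were thus 2 of 4 receptors, where 13.3% of 12039 genes were (7.53% of those at 100 CPM or more).

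In the venous range, compared with the capillary range, all 4 receptors were lower by 1.5-fold (10% of 11861 genes were, and 4.99% of those at 100 CPM or more). Tfrc was at 785 against 1424 CPM (log2 ratio -0.86, plates -0.91, -1.13, -1.14 and -0.39), Insr at 504 against 912 CPM (-0.85, plates -1.11, -1.20, -0.89 and -0.22), Igf1r at 163 against 268 CPM (-0.72, plates -1.68, -0.28, -0.33 and -0.76) and Lepr at 19.8 against 51.6 CPM (-1.34, plates -0.62, -2.84, -4.32 and -0.73). The direction held on each of the 4 plates, and for how many of all genes it does so was not counted. The size did not always reach 1.5-fold: Tfrc was at -0.51 with Slc16a1 and Car4 taken out of the capillary list and at -0.52 when markers with a read were counted in place of levels, and Igf1r was at -0.47 without plate 521 and at -0.42 with the upper 10%. Of 17 other settings, 14 left Tfrc, 16 left Insr, 11 left Igf1r and 17 left Lepr past 1.5-fold.

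**Figure D2:**
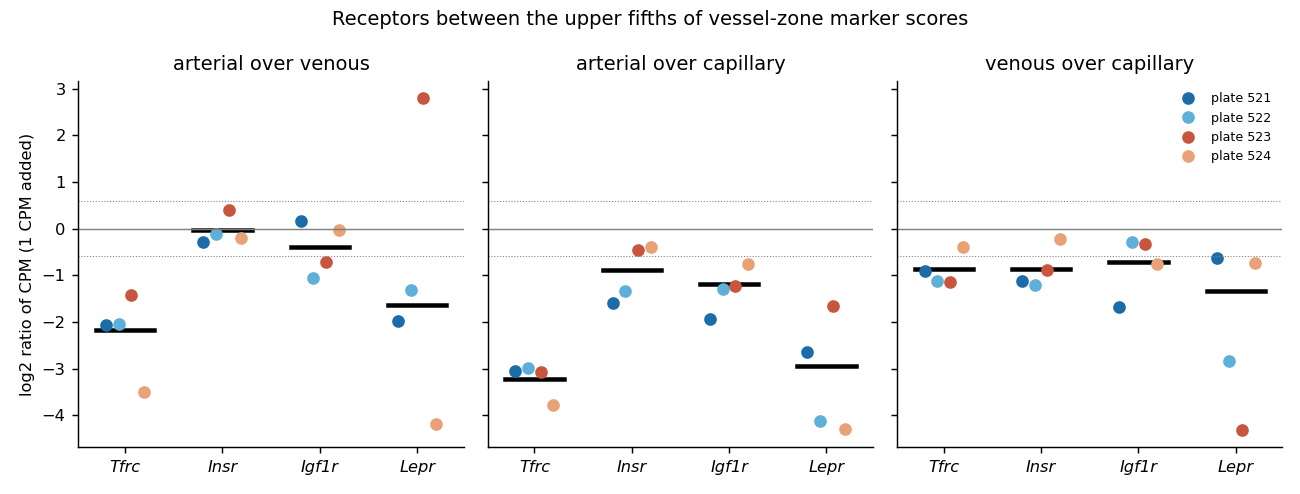
Log2 ratios of each receptor between the upper 20% of 2 marker scores, with a point for each plate and a black bar for all plates together; dotted lines mark 1.5-fold. Tfrc lies below -2.9 on every plate in arterial over capillary cells (-2.99 to -3.78), Insr lies around 0 in arterial over venous cells, and the Lepr plate values of arterial over venous cells spread from -4.19 to 2.81.

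Transcripts of other cell types moved with these ranges in small amounts. The 6 fibroblast markers summed to 101 CPM in the arterial, 44.8 in the capillary and 44.0 in the venous range, and the 8 pericyte markers to 70.1, 82.8 and 61.8 CPM, with Kcnj8 at 0 in the venous range. Without the 18 cells that carried 3 or more markers of another type, the arterial to capillary ratios were -3.21 for Tfrc, -0.85 for Insr, -1.18 for Igf1r and -2.96 for Lepr.

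Along the whole arterial score, split into 5 equal ranges from low to high, Tfrc changed mainly at the upper end. It stood at 1289, 1169, 1210.1, 782 and 208 CPM, and Lepr at 47.8, 41.4, 44.3, 26.1 and 5.98 CPM. Igf1r was level over the lower 4 ranges (233 to 262 CPM) and at 128 CPM in the uppermost, and Insr ran from 634 to 698 CPM and then 521 CPM. Along the capillary score Tfrc was higher at every step over all cells, with 400.4, 770, 980, 1034 and 1432 CPM. On plate 521 alone it had a lower step (668 to 630.1 CPM). Insr was at 443, 557, 596, 711 and 900 CPM over all cells, in order on plate 521 and out of order at some step on the other plates, although the lowest range was below the highest on each. Lepr was at 18.5, 27.3, 39.7, 31.2 and 47.4 CPM, out of order. Igf1r over all cells went from 136 to 257 CPM by the middle range and stayed between 257 and 262 CPM above it. Along the venous score Tfrc was at 850 to 1022 CPM over all cells, but the plates differed: from the lowest to the highest range it went from 1804 to 988 CPM on plate 523 and from 778 to 1156 CPM on plate 524. Over all cells Insr went from 714 CPM in the lowest to 528 CPM in the highest venous range. Along the tip-like score no receptor had an ordered course: Tfrc was between 758 and 1070 CPM and Igf1r between 196 and 236 CPM, and Insr was at 744 CPM in the uppermost range over all cells, where plates 521, 522 and 523 had their highest value (787, 750.0 and 849 CPM) and plate 524 its lowest (590.1 CPM).

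**Figure D3:**
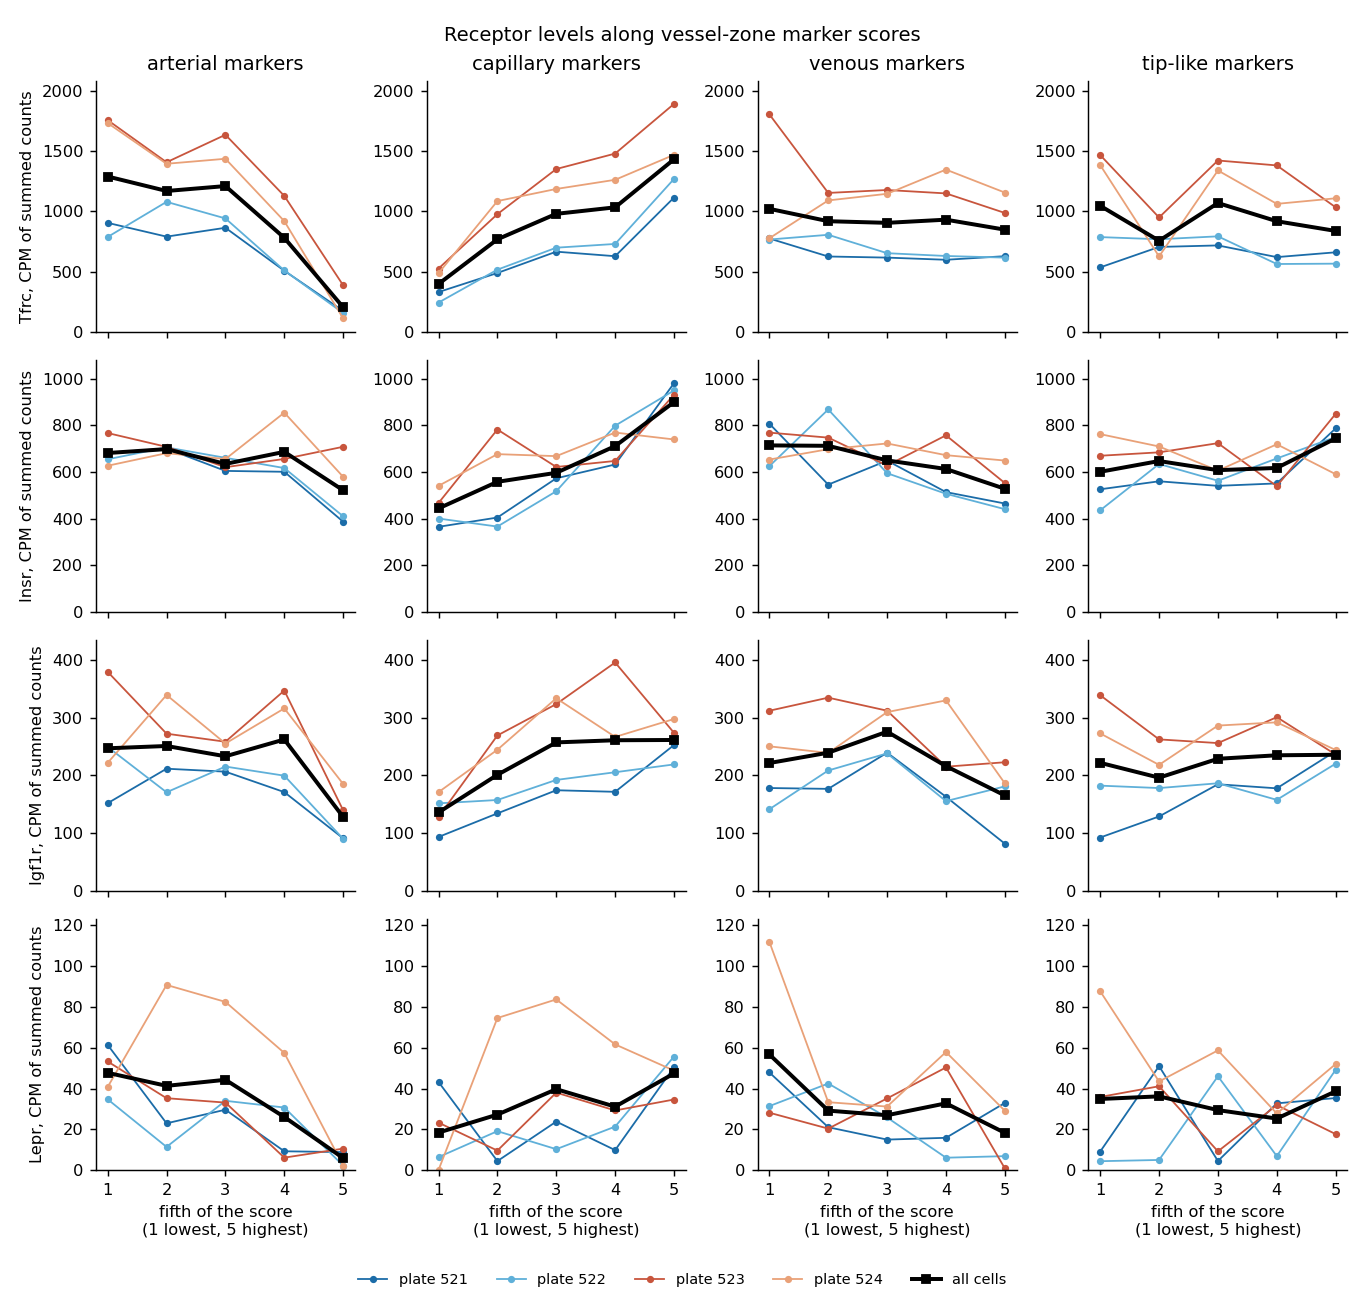
CPM of each receptor (rows, linear axes from 0) in 5 equal ranges of the arterial, capillary, venous and tip-like score (columns, 1 lowest to 5 highest), for each plate and for all cells in black. Tfrc ends at 208 CPM at the arterial end and at 1432 CPM at the capillary end, and its plates take different courses along the venous score (1804 to 988 CPM on plate 523, 778 to 1156 CPM on plate 524).

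The same markers were also read one at a time, by comparing cells with a read of a marker at fixed depth with cells without. Of 12 arterial markers, 11 left at least 50 cells on either side. Tfrc, Igf1r and Lepr were lower in the cells with the marker for 11 of 11, as were 5.4% of 11461 genes, and Insr for 9 of 11 (22.7% of genes had as many). The median log2 ratio was -1.53 for Tfrc (from -2.0 with Gja4 to -0.40 with Gja5), -1.48 for Lepr, -0.61 for Igf1r and -0.41 for Insr. The direction held on every plate for 10 of the 11 markers for Tfrc, 10 for Igf1r and 7 for Lepr. For Insr it held for 6 of the 9. How many of all genes keep a direction on every plate was not counted, here or for the other marker lists. These markers occur in the same cells, so the 11 comparisons are not separate evidence.

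With capillary markers the receptors were mostly higher: Tfrc for 6 of 8 (20.1% of genes had as many), and Insr, Igf1r and Lepr for 7 of 8 each (7.98%). On every plate with a value this held for 4 of those 6 markers for Tfrc, and for 4, 5 and 4 of those 7 for Insr, Igf1r and Lepr. For Lepr these include Itih5, which had no value on plate 521 and was at 0.009 on plate 523. Igf1r with Rgcc was 0.08 over all cells and below 0 on each of the 4 plates. Tfrc was highest with Car4 (1.44), a membrane carbonic anhydrase, with the lipid transporter Mfsd2a (1.08) and with Hmcn1 (1.03), and close to 0 with Rgcc (0.10) and Itih5. Lepr was highest with Hmcn1 (1.86). Venous markers gave small ratios for Tfrc, from -0.60 with the adhesion molecule Vcam1 to 0.14 with the venous transcription factor Nr2f2, with 8 of 9 below 0 (14.3% of genes had as many). Igf1r was also below 0 for 8 of 9, and Insr and Lepr were for 9 of 9 (4.95%), with medians of -0.41, -0.23 and -0.59. The plates often differed here: the direction held on every plate with a value for 1 of the 8 markers for Tfrc, 4 of the 8 for Igf1r, 5 of the 9 for Insr and 3 of the 9 for Lepr. Tip-like markers gave small ratios too: Tfrc was lower with 7 of 8 (16.2% of genes had as many) and Igf1r with 8 of 8 (4.87%), at medians of -0.35 and -0.14, Lepr was lower with 6 of 8 (30.8%) and Insr higher with 6 of 8 (26.1%). Within plates these directions mostly did not hold: 2 of those 7 for Tfrc, 0 of 8 for Igf1r, 1 of 6 for Lepr and 0 of 6 for Insr did so on every plate with a value. The tip-like markers themselves were several times higher on plates 521 and 522, as given below. Slc38a5, an amino acid transporter of capillaries and veins, gave 0.39 for Tfrc, 0.02 for Igf1r, -0.08 for Insr and -0.16 for Lepr. Of these only the Tfrc direction held on every plate.

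**Figure D4:**
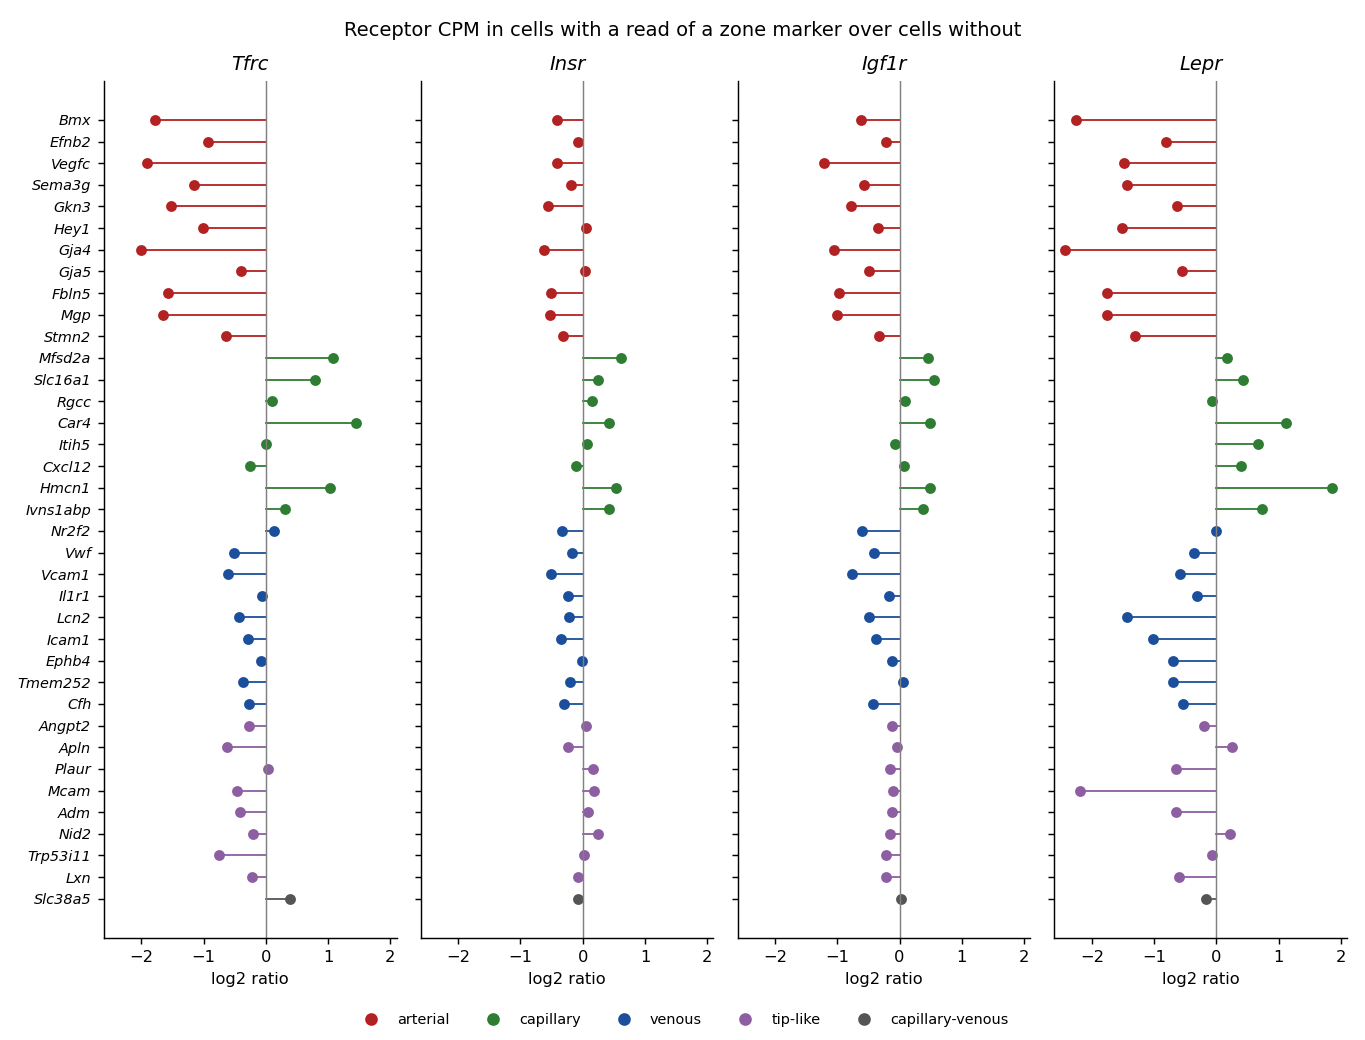
Log2 ratio of each receptor's CPM in cells with a read of the marker named on the vertical axis over cells without, coloured by the marker's list. The arterial markers lie to the left of 0 for Tfrc, Igf1r and Lepr, with medians of -1.53, -0.61 and -1.48, and the capillary markers mostly to the right.

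The plate difference of Tfrc was also present between cells of like rank in the capillary score. Plates 523 and 524 had the 2 highest Tfrc values in 5 of 5 ranges of the capillary score, as did 1.88% of genes at 5 CPM or more. In the lowest range Tfrc stood at 333, 247, 528 and 489.8 CPM on plates 521 to 524, and in the highest at 1115, 1269, 1889.8 and 1469 CPM. The same held for Igf1r in 4 of 5 ranges (4.58% of genes had as many), for Insr in 3 of 5 (10.1%) and for Lepr in 2 of 5 (24.4%). This pair of plates was chosen after the values had been seen. Zone markers themselves differed by plate: the capillary markers summed to 5823, 7186, 8161 and 8733 CPM, the venous markers to 2838, 2093, 973 and 743 CPM and the tip-like markers to 1525, 966, 260 and 212 CPM on plates 521 to 524, while the arterial markers were at 589 to 641 CPM. The ranges were ranked within plate, so a range holds cells of different marker level on different plates, and the part of this in the Tfrc difference was not tested.

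Among genes that handle iron, the iron exporter was lower in the arterial than in the capillary range, as Tfrc was, and the iron storage genes were nearly level. Slc40a1, which encodes ferroportin, was at 394 CPM in the arterial and 1099 CPM in the capillary range (log2 ratio -1.48, plates -1.26 to -1.74), and at 1062 against 1051 CPM between the venous and capillary ranges (0.01). Slc39a8, a metal ion importer, was at 202 against 629 CPM (-1.63, plates -1.42 to -1.77). The ferritin chains Fth1 and Ftl1 were at 811 against 738 CPM (0.14) and 364 against 366 CPM (-0.01), the endosomal iron transporter Slc11a2 at 36.6 against 48.8 CPM (-0.40) and transferrin itself, Trf, at 138 against 107 CPM (0.37). Bmp6, the endothelial ligand that drives hepcidin in liver, was higher in the arterial range, with 105 against 17.1 CPM (2.55, plates 1.54 to 3.08). Of 18 members measured, 4 were higher and 3 lower by 1.5-fold, with a median of -0.03, beside 16.1% and 12.6% of all genes and a median of 0.03.

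Of the insulin and IGF signalling list, 5 of 24 measured members were higher and 1 lower in the arterial than in the capillary range (median 0.17), beside 16.1% and 12.6% of all genes. Igfbp3, which binds insulin-like growth factors, was at 170 against 3.11 CPM (5.38, plates 4.95 to 7.58), and at 57.2 against 3.08 CPM between the venous and capillary ranges. Igfbp7, another member of the binding protein group, was at 921 against 1069 CPM (-0.21). The insulin receptor substrates were scarcely read, with Irs1 at 1.31 and Irs2 at 0.92 CPM over all cells. Grb10, an adaptor that dampens insulin signalling, was at 39.9 against 80.8 CPM (-1.0), and the insulin-degrading enzyme Ide was at 90.1 against 62.6 CPM (0.52) and the kinase Pdpk1 at 80.7 against 61.6 CPM (0.38). Igf2r, the mannose 6-phosphate receptor, was at 18.9 and 19.2 CPM in these ranges, and at 29.9 against 18.3 CPM between the venous and capillary ranges (0.68).

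Of the leptin signalling list, 1 of 11 measured members was higher and 3 were lower (median 0.07), beside the same 16.1% and 12.6%. Leprot was at 224 against 266 CPM (-0.25) and Leprotl1 at 47.9 against 94.4 CPM (-0.96). The kinase Jak2, which the leptin receptor uses, was at 63.2 against 108 CPM (-0.77) and the STAT target Cish at 11.0 against 37.0 CPM (-1.67, plates -3.96 to 0.43). The summed level of Leprot differed little between plates (242 to 259 CPM), in contrast to the plate values of Lepr. Its cells did differ. The median of Leprot over cells was 199, 154, 74.1 and 33.3 CPM on plates 521 to 524. At fixed depth 67.7%, 62.1%, 56.8% and 55.8% of cells had a Leprot read.

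Other receptors of blood-brain transport were lower in the arterial than in the capillary range for 6 of 12 members and higher for 2 (median -0.43), where 12.6% of all genes were lower and 16.1% higher. Slc7a5, a large neutral amino acid transporter on this list and not a receptor, was at 460.2 against 1655 CPM (-1.84). The endocytosis and sorting list had 3 of 30 members higher and 2 lower (median -0.10), both under those shares of all genes. The recycling GTPase Rab4a was at 25.0 against 67.0 CPM (-1.39), the clathrin light chain Cltb at 217 against 143 CPM (0.60) and the sorting nexin Snx12 at 28.1 against 32.2 CPM (-0.19). Between the arterial and venous ranges, where 14.2% of all genes were higher and 13.3% lower, the leptin list had 3 of 11 members lower and none higher (median -0.17), the insulin and IGF list 6 of 24 higher and 2 lower (0.23) and the iron list 1 of 18 higher and 3 lower (-0.16). The list of other transport receptors had 2 of 12 members higher and 2 lower there (-0.29). Between the venous and capillary ranges, where 13.9% of all genes were higher and 10% lower, the iron list had 4 of 18 higher and 1 lower (0.10) and the leptin list 1 of 11 higher. Other transport receptors had 1 of 11 members higher and 2 lower in that comparison (-0.17).

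**Figure D5:**
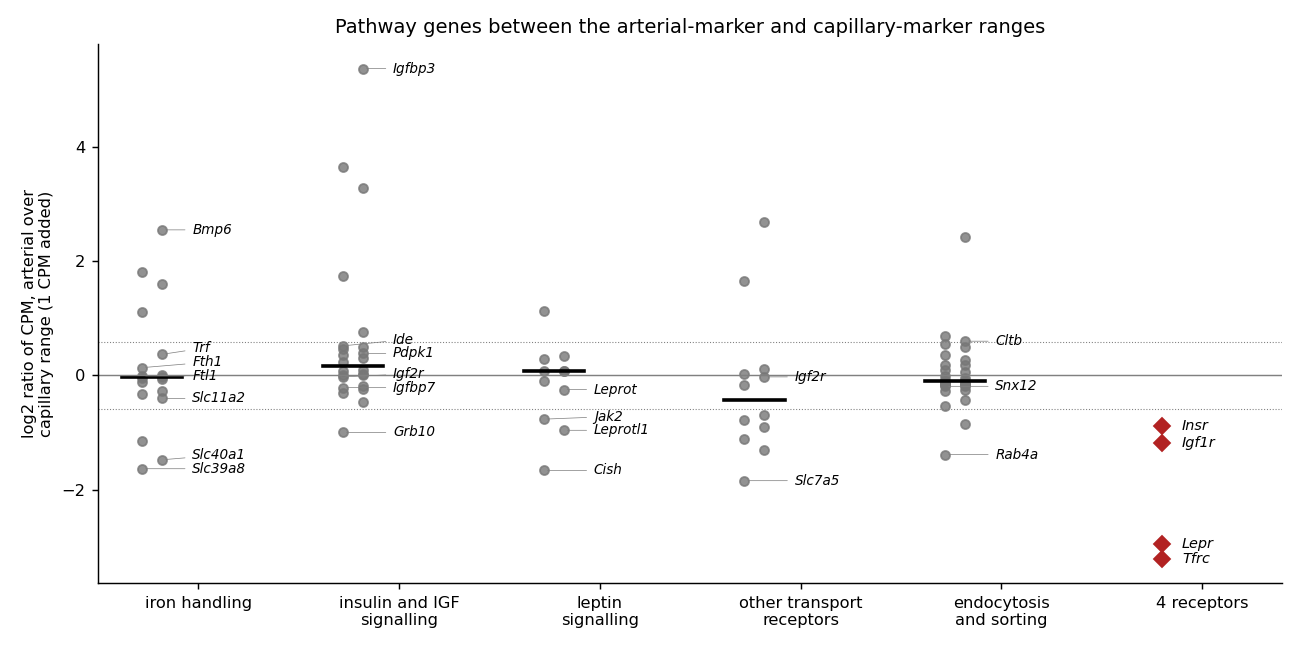
Log2 ratio of the CPM in the arterial over the capillary range for each measured member of 5 pathway lists (grey points, black bar for the median) and for the 4 receptors (red diamonds), with dotted lines at 1.5-fold. Slc40a1, Slc39a8 and Slc7a5 lie at -1.48, -1.63 and -1.84, above Tfrc and Lepr at -3.21 and -2.95.

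Across the 1187 cells, the genes whose log2(CPM + 1) went most closely with Tfrc after plate means were removed were the organic anion transporter Slc22a8 (Pearson r = 0.44), Slc7a5 (0.40), Car4 (0.40), the monocarboxylate transporter partner Bsg (0.40) and the creatine-synthesis enzyme Gatm (0.39), among 11726 genes with a read in at least 10% of cells. Cells share a plate and differ in depth, so these values are a description, and with the number of genes with a read also removed they were 0.38 to 0.44. Car4, and Mfsd2a, Hmcn1 and Ivns1abp below, are on the capillary marker list. For Igf1r the leading genes were Slc7a5 (0.31), Sparcl1 (0.28), Hmcn1 (0.22), Ctla2a (0.22) and Gm15270 (0.22). For Insr they were Ivns1abp (0.24), Slc38a3 (0.21), Mfsd2a (0.21), Slc1a1 (0.20) and the Notch ligand Dll4 (0.20). For Lepr they were Slc22a8 (0.16), Gm15270 (0.15), Hmcn1 (0.15), Ctgf (0.15) and Gatm (0.14), which are weak and rest on sparse counts. The receptors went less closely with each other: r was 0.16 for Tfrc with Igf1r, 0.13 for Tfrc with Insr, 0.11 for Tfrc with Lepr and 0.10 for Insr with Igf1r. Of the 135 cells with Lepr at 20 CPM or more, 83.7% also had Tfrc at that level, which 69.7% of all cells had. All 4 receptors were at 20 CPM or more in 81 cells, 3 of them in 508, and none in 37.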

How the data were processed

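Single brain endothelial cells were sequenced by Smart-seq2, with 1 library per cell and no molecular identifiers. The deposited values are whole-number counts of reads per gene, and the authors' tools, per the submitters' processing notes, include Subread 1.4.6-p5 (featureCounts), TopHat2 2.1.1 and SAMtools 0.1.18, with the builds GRCm38 and mm10. Annotation and strand setting are not given in the sources used here. Without strand, a gene and its antisense partner cannot be told apart. Columns were assigned to plates by name and to no genotype. From the counts, CPM, per-cell scores and log2 ratios were computed in Python 3.11.15 (numpy 2.4.6, pandas 2.3.3, scipy 1.17.1). No cell was removed. Cells were thinned to 100000 reads for shares. Depth was 100779 to 584112 reads per cell. With 1 pooled sample no test was run. Named genes were the 4 receptors, for each the 5 genes most correlated over cells, and from each pathway list up to 4 genes a direction past 1.5-fold between the arterial and venous ranges at 20 CPM or more, with 10 genes named in any case. The range and ratio steps were run on simulated cells, for the upper 20% of an arterial score against all other cells. That setting differs from the comparisons between ranges, without shared cells, that are given here. Alternatives varied the cut, ranking, score, marker lists, scaling, prior and plates. Members and lists were chosen with earlier results of these data known. Flvcr1 of the iron list was not analysed here. Of the transport receptors, 1 gene that the rule names is not reported here.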

Additional observations from a re-analysis of the deposited data

Results flagged for a closer look

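Lepr on plate 524 stood at 53.5 CPM, apart from 22.8 to 27.2 CPM on the other plates by Dixon's criterion for 4 values. Without the 10 cells highest in Lepr the plate values were 20.2 to 30.2 CPM. By the same criterion the Tfrc ratio of arterial over capillary cells was apart on plate 524, at -3.78 beside -3.07 to -2.99 on the other plates. Plates are known from the column names alone and are not replicates. In all, 16 sets of 4 plate values were looked at, and chance marks about 1 in 20 of such sets.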

How the results depend on the processing

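Of 284 values under other settings, 259 stayed within the spread (the SD over plates, or for plate levels the error over cells; for shared genes, within 1.5 times) and 25 did not; none of the called ratios changed sign. The spread differed by result. For Lepr in arterial over venous cells it was 2.92, wider than the ratio of -1.63. Values from -2.47 to -0.86 therefore all stayed within it, which says little about how steady that ratio is. No paired analysis was possible because no column carries a genotype or a replicate number. The window of the promoter sequences and the count of plates 523 and 524 were chosen after seeing the data. With the upper 10% of each score, Tfrc was at -3.11 in arterial over venous and -3.69 in arterial over capillary cells, and Igf1r at -1.15 in arterial over venous cells; with the upper 30%, Tfrc was at -2.26 in arterial over capillary cells. Ratios of shares of cells with a read are on a scale of their own. They were -0.94 for Tfrc in arterial over venous cells, -1.08, -0.19 and -0.57 for Tfrc, Insr and Igf1r in arterial over capillary cells, and -0.17 and -0.11 for Tfrc and Insr in venous over capillary cells. Leaving out 1 plate at a time gave Tfrc ratios of -3.28 to -3.04 in arterial over capillary cells. The highest over lowest plate of Lepr was 0.56 (log2) without the 10 cells highest in it, a setting chosen after seeing the data, as was the shortened capillary list. For list medians in arterial over venous cells, insulin and IGF signalling was at 0.12 with a 20 CPM filter, 0.30 with none, 0.17 at the upper 10% and 0.061 at the upper 30%, and other transport receptors were at -0.47, -0.081 and -0.63 with the 20 CPM filter, no filter and the upper 10%. In arterial over capillary cells insulin and IGF signalling was at 0.34 with no filter, and other transport receptors were at -0.74, -0.095 and -0.73 with the 20 CPM filter, no filter and the upper 10%. In venous over capillary cells they were at -0.052 with no filter. The cause was not tested. By Spearman's rho, 2 of the 5 genes most like Insr and 3 of the 5 most like Igf1r were among the leading 5. Depth limits Lepr most, with under 50 reads in some arterial ranges of a plate.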

Other observations

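Cells rich in Lepr lay mostly outside the arterial range. Of the 84 cells with Lepr at 100 CPM or more, 5 were in the arterial range, 9 in the venous, 26 in the tip-like and 29 in the capillary range, each of which holds 20% of all cells. They were spread over the plates as 21, 21, 15 and 27 cells, and their median number of genes with a read was 4476.5, beside 4462 over all cells. The capillary and tip-like ranges share 62 cells, so the last of these counts overlap.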
